A study of Homo sapiens with 12 samples.

Results

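The long intergenic non-coding RNAs (LINC RNAs) that carried signal in OCI-LY1 lymphoma cells were taken as the features named LINC followed by digits whose mean was at least 2 TPM over 11 of the 12 libraries, the library left out being replicate 3 of the parental decitabine group. TPM, transcripts per 1000000 transcripts, corrects for the length of each feature. Of 2136 features named in this way, among 60656 in all, 64 were kept, and 1 more above the threshold was left out by the rule. Because a mean level chose the members, that they are present in the 11 libraries is not a result.

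The libraries came from OCI-LY1, an established human line of diffuse large B-cell lymphoma, and fell into 4 groups of 3. Parental cells were given vehicle (DMSO) or 1 µM decitabine for 3 days. Cells of genotype "Venetoclax resistant", derived from the parental line by rising doses of venetoclax up to 1 µM, were given the same treatments. Decitabine is a cytosine analogue that blocks DNA methyltransferases, and venetoclax inhibits the survival protein BCL2. The resistant cells are 1 derived line, and the labels do not say whether the libraries of a group are separate cultures, so p-values measure only the spread between these libraries, which may be technical. Parental libraries carry replicate numbers 1 to 3, and resistant libraries are lettered a to c here.

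Long non-coding RNAs are transcripts without a long open reading frame that are mostly spliced and polyadenylated like messenger RNAs. The LINC symbols are placeholder names given to such genes when no function was known, and they say only that the gene was first placed outside coding genes. Many such RNAs are made at low levels and in few cell types. Some are transcribed from CpG-rich promoters, and methylation of promoter cytosines is a known way of silencing genes, which decitabine can relieve.

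The sequences below belong to 6 of the 8 members that passed the test in at least 1 comparison, and they show how much CpG sequence lies at annotated starts. CG dinucleotides are in capitals. For 4 of them RefSeq (GRCh38.p14) gives a promoter window of 300 bases, from 250 before to 50 after the start. These windows are chr1:148459871-148460170 for LINC01138, chr20:7254153-7254452 for LINC01428, chr2:68837158-68837457 for LINC01890 and chr5:29395927-29396226 for LINC02064, all on the minus strand. For LINC01138 RefSeq and GENCODE put the start in different places, and the window lies inside the gene span that GENCODE gives.
LINC01138: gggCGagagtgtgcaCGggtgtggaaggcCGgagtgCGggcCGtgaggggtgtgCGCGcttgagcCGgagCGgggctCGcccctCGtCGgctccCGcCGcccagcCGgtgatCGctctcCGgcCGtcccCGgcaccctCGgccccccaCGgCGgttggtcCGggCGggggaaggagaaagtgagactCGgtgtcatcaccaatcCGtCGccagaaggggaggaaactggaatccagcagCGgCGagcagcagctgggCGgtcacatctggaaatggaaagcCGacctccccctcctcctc
LINC01428: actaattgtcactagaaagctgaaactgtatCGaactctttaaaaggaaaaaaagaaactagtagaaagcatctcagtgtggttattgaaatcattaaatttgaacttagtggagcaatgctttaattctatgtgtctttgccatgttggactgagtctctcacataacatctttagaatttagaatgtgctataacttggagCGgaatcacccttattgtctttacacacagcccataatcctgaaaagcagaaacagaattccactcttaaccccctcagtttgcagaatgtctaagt
LINC01890: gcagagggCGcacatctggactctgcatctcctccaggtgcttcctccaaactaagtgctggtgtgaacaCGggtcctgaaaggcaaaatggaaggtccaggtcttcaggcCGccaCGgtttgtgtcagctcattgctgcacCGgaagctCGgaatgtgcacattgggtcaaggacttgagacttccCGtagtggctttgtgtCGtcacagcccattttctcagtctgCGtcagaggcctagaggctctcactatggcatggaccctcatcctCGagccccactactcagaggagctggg
LINC02064: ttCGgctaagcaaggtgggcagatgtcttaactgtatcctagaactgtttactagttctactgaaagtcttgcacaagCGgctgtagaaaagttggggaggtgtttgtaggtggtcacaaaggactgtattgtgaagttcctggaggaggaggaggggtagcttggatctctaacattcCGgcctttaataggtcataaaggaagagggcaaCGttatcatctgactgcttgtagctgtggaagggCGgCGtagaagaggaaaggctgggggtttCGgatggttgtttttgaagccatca
The LINC01138 window held 31 CG dinucleotides, and 20.7% of all 35116 RefSeq promoter windows held at least as many. The windows of LINC01890, LINC02064 and LINC01428 held 10, 7 and 2, counts that 56.4%, 63.2% and 89.0% of all windows reach. Across the 43 members with a window the median was 9, against 14 over all windows. At least 20 CG dinucleotides were found in 14 of the 43 (32.56%) and in 41.16% of all windows. These counts describe the letters and say nothing of methylation, which was not measured.

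For LINC01345 and LINC02532, which also passed the test, the first 150 bases of the longest transcript in GENCODE 29 (GRCh38) are shown in the same way.
LINC01345: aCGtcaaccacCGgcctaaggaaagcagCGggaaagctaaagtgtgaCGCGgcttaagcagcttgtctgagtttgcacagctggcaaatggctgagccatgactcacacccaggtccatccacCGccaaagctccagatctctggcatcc
LINC02532: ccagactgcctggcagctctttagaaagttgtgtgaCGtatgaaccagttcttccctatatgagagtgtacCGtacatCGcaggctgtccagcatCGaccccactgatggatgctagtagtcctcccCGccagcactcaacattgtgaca
LINC01345 held 6 CG dinucleotides in these bases and LINC02532 held 5.

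Most members are not clear of other genes. GENCODE 29 lists 61 of the 64 by name, 52 of them as lincRNA, 3 as antisense, 3 as processed transcripts and 3 as transcribed unprocessed pseudogenes. LINC02637, LINC01036 and LINC01409 were not matched and have no coordinates here. All coordinates, sequences and neighbouring genes in this report follow the name. The identifier listed beside the name in parental cells belongs to that name for only 20 of the 64, and which is right was not settled. An annotated exon lies on the opposite strand of an exon of 32 members, another 12 have an opposite gene over introns only, and 17 have no opposite gene. Chromosome 1 holds 11 members, chromosome 5 holds 10 and chromosome 13 holds 6. Summed exon lengths ran from 436 bases (LINC01023) to 18352 bases (LINC00598), with a median of 2458.

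Some members also share sequence with other annotated transcripts, which bears on how reads can be assigned. The share of a member's 31-base words that also occur in transcripts of other genes had a median of 6.36% over the 61 and was under 10% for 35. It was over 50% for 6 members, namely LINC01145 (88.55%), LINC02603 (85.51%), LINC00623 (71.38%), LINC00869 (59.27%), LINC02256 (57.95%) and LINC01410 (50.77%). The values of these 6 are uncertain, since reads from the copies can be counted on either. Of the other members that passed the test, LINC01138 shared 25.56%, LINC01428 18.13%, LINC00624 3.992%, LINC02064 1.25% and LINC02532 0.0579%, and LINC01345 and LINC01890 shared none.

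The levels covered a wide range. A mean of 100 TPM or more was reached by 2 members, 26 lay between 10 and 100, 13 between 5 and 10 and 23 between 2 and 5, with a median of 7.99 TPM. Above 0 in all 11 libraries were 49 members, and 15 were listed at 0 in at least 1. A listed 0 is not read as absence. UBB, a ubiquitin gene that every cell uses, was itself listed at 0 in 3 libraries, while the other 9 had 1543 to 2706 TPM.

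LINC02067 (chr3:161426427-161448242, plus strand) had the highest mean. Parental vehicle replicates 1 to 3 had 283, 288 and 290.1 TPM, and decitabine replicates 1 and 2 had 253 and 222 TPM. Resistant vehicle libraries had 249.9, 325 and 279 TPM, and resistant decitabine libraries had 198, 235 and 169 TPM. It was the highest member in 10 of the 11 libraries.
LINC01138 (chr1:148290889-148519604, minus strand), an RNA reported to act with the methyltransferase PRMT5 in liver cancer cells, had the next mean and was higher in resistant cells. LINC00847 (chr5:180830957-180835726, plus strand) followed. Parental vehicle libraries had 77.1, 96.2 and 93.2 TPM, and decitabine replicates 1 and 2 had 59.6 and 60.9 TPM. The resistant libraries had 67.9, 63.97 and 54.9 TPM under vehicle and 58.1, 192 and 175 TPM under decitabine, so that decitabine libraries b and c stood far above library a. HEIH lies opposite 20.95% of the exon bases of LINC00847. In resistant libraries a to c HEIH had 150, 159 and 145 TPM under vehicle and 129, 65.9 and 58.9 TPM under decitabine. Whether reads were divided differently between LINC00847 and HEIH was not tested.

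LINC01529, LINC01018, LINC00667 and LINC00649 completed the 7 highest, with means of 80.8, 74.0, 65.7 and 54.6 TPM. Neighbours in this order overlapped over the libraries. LINC00667 ranged from 54.9 to 76.7 TPM and had the lowest coefficient of variation of the 64 over the 11 libraries (10.2%). LINC00869, the next, was the least even of the high members: parental vehicle libraries had 60.3, 0.159 and 20.2 TPM and parental decitabine replicates 1 and 2 had 2.98 and 2.66 TPM. Resistant vehicle libraries had 114, 104.4 and 69.7 TPM of LINC00869, and decitabine libraries had 78.7, 81.9 and 4.51 TPM. LINC02532 and LINC00957, with means of 44.9 and 42.1 TPM, closed the first 10.

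Members at the low end rested on few libraries. Just inside the threshold, LINC02256 had a mean of 2.20 TPM, LINC00337 2.16 TPM and LINC01483 2.07 TPM. LINC00337 was listed at 7.52 TPM in parental vehicle replicate 2, at 16.2 TPM in resistant vehicle library b and at 0 in the other 9 of the 11. Just outside were LINC00893 at 1.91 TPM, LINC01104 at 1.90 TPM and LINC00216 at 1.71 TPM. Of the 2054 other uniquely named LINC features, 18 had a mean between 1 and 2 TPM and 1437 were listed at 0 in all 12 libraries.

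**Figure D1:**
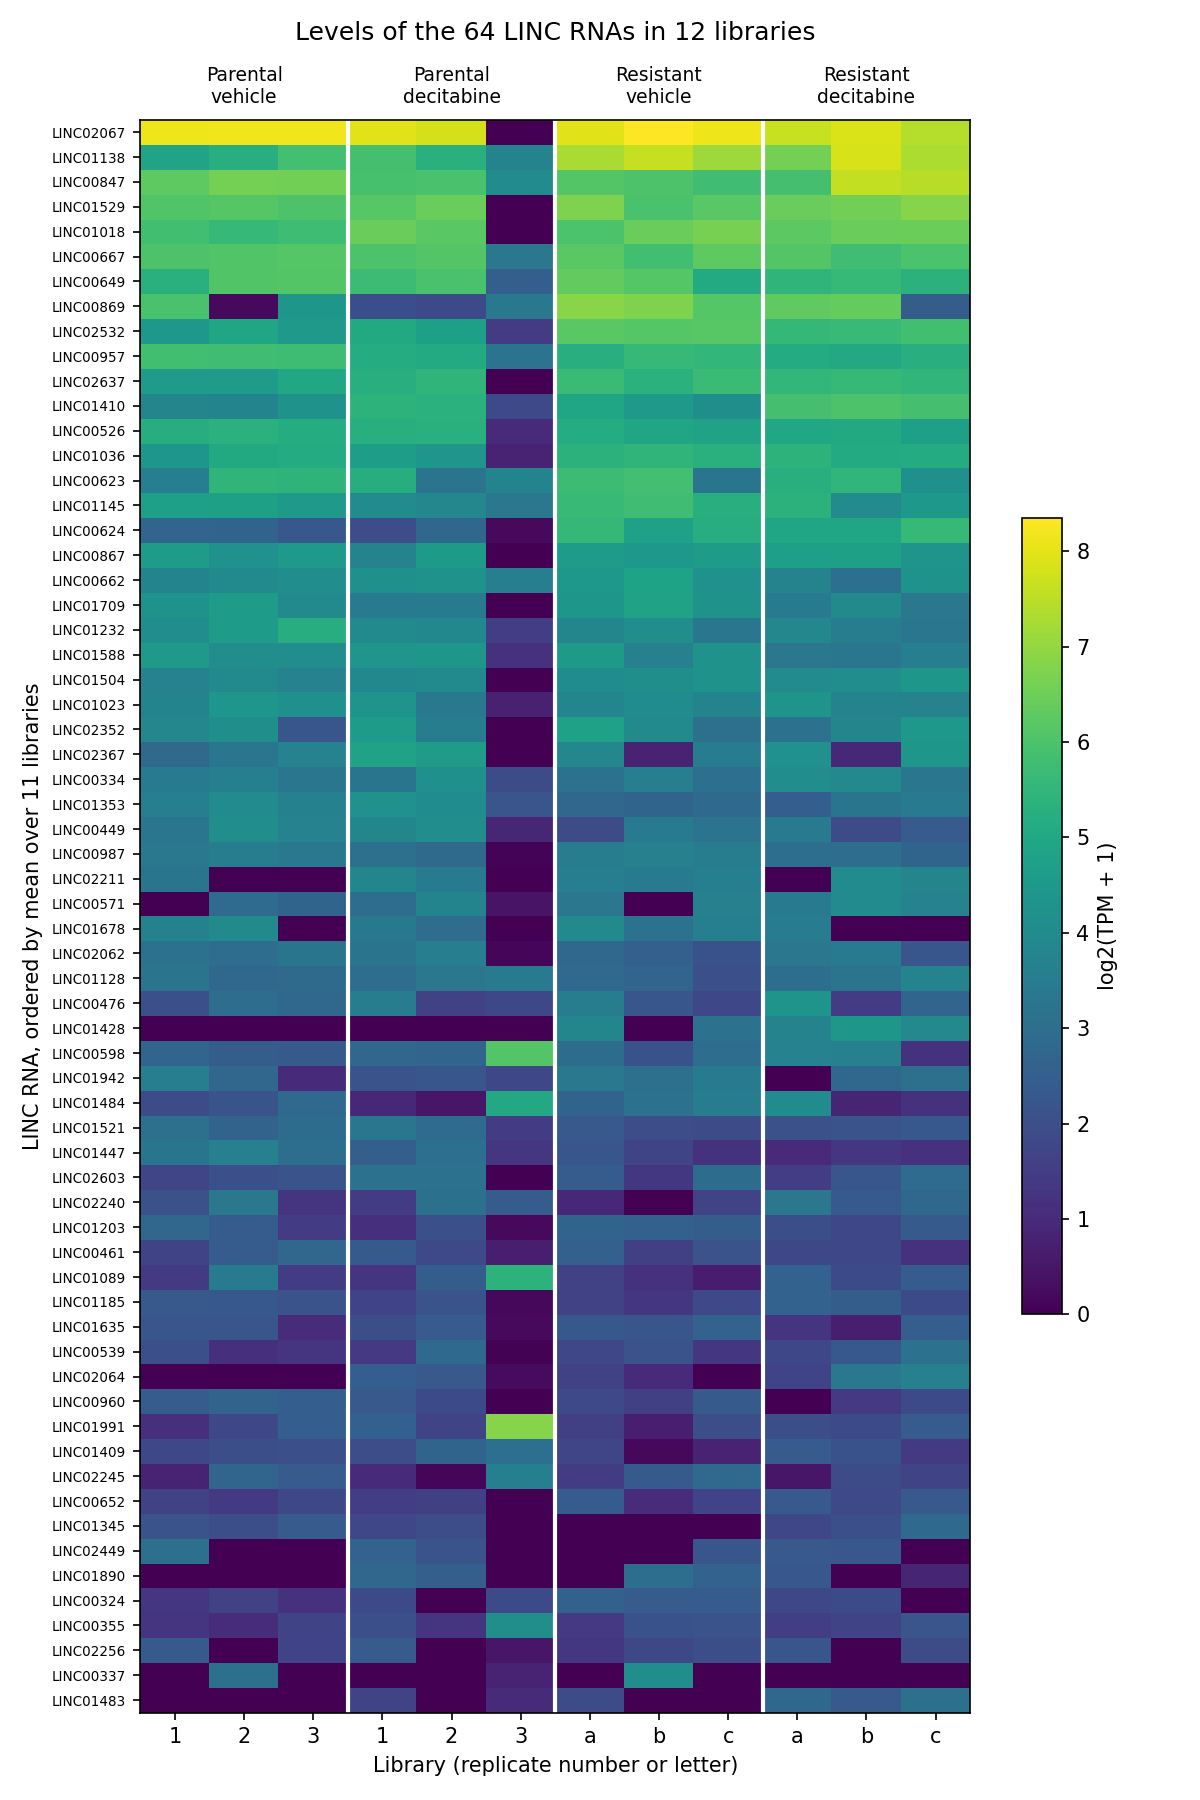
Heat map of log2(TPM + 1) for the 64 LINC RNAs (rows, ordered by their mean over 11 libraries) in the 12 libraries (columns, grouped by line and treatment). The column of parental decitabine replicate 3 is dark where the others are bright for most rows, and 7 rows show the reverse.

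In these RNAs, as in the tables as a whole, parental decitabine replicate 3 differed from the other libraries. The 64 members together took 427 TPM there, against 1188 to 1289 TPM in parental vehicle libraries, 1260 and 1184 TPM in decitabine replicates 1 and 2 and 1402 to 1666 TPM in the 6 resistant libraries. Replicate 3 lay below all 11 other libraries for 36 members, above all of them for 7 and within their range for 21, and 17 members were listed at 0 there. Since the 11 libraries chose the members, a lower level in the library that was left out is partly built into the choice, and no test is given. Features of at least 1 TPM numbered 13701 in replicate 3 and 7137 to 9117 in the others.

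Markers of the labelled cell type moved with this difference. The 10 germinal-centre B-cell markers summed to 3354 TPM in replicate 3, with all 10 at 1 TPM or more, and to 45.4 to 213 TPM in the other 11, where 8 of the 10 had a mean of at least 1 TPM. The T and NK cell list summed to 4.96 TPM in replicate 3 and to 0 to 2.25 TPM in the others, with CD3E, CD3D, CD2 and CD7 at 0 in the 11. The myeloid list summed to 0.530 TPM against 0 to 1.39 TPM, with CD14 and ITGAM at 0 in the 11. The list for stroma and epithelium summed to 34.4 TPM against 0 to 22.4 TPM, with COL1A1 and PDGFRB at 0 in the 11. KRT8, an epithelial keratin, had 22.4, 14.5 and 1.77 TPM in resistant decitabine libraries a to c and at most 2.51 TPM in the other 9 libraries. What these lists contribute to the members' values was not tested. The comparisons below leave replicate 3 out unless it is named.

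LINC02067, the highest in the other libraries, was listed at 0.00569 TPM in replicate 3, and LINC01529, LINC01018 and LINC02637 were listed at 0. The 5 highest members in replicate 3 were different ones. LINC01991 had 112 TPM there and 0.633 to 4.998 TPM in the other 11, LINC00598 had 68.4 TPM against 1.32 to 11.9 TPM, and LINC01089, an RNA reported to restrain invasion of breast cancer cells, had 41.1 TPM against 0.592 to 10.04 TPM. LINC01484 had 32.1 TPM against 0.404 to 15.8 TPM, and LINC00355 had 16.5 TPM against 1.10 to 3.60 TPM. All 5 stood above every one of the other 11 libraries, as did LINC02245 at 11.1 TPM and LINC01409 at 7.31 TPM.

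A list drawn from replicate 3 would hold mostly other RNAs. There 104 LINC features reached 2 TPM, of which 24 were members, that is 37.5% of the members and 23.1% of the features in that list. LINC00926 (69.7 TPM), LINC01578 (46.3 TPM), LINC01184 (41.8 TPM), LINC01054 (37.0 TPM) and LINC00426 (35.2 TPM) led the features outside the members and had means of 0 to 1.13 TPM over the 11.

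The levels differed with what lies on the opposite strand. The 32 members with an exon opposite had a median of 13.4 TPM over the means of the 11 and of 1.14 TPM in replicate 3. Those with introns opposite had 4.93 and 0.129 TPM, and those with no opposite gene 5.07 and 1.49 TPM. Of the 32, the opposite gene was lower than the member in the 11 for 19 and higher than the member in replicate 3 for 17, and both held for 10. Since the 11 libraries chose the members and not the opposite genes, these counts are partly built into the choice. The share among other opposite-strand pairs was not taken, and no test is given.
A coding gene on the other strand starts close to 4 members. LINC01185 starts 207 bases from REL, an NF-κB subunit, on the other strand. REL had 37.1 TPM in replicate 3 and at most 0.615 TPM in the 11, while LINC01185 had 0.140 TPM and 1.498 to 5.18 TPM. LINC02062 starts 214 bases from CHD1, a chromatin remodeller, which had 9.17 TPM in replicate 3 and at most 0.136 TPM in the 11, and LINC02062 had 0.118 TPM against 3.26 to 10.9 TPM. LINC01521 starts 545 bases from PATZ1, a zinc-finger factor, which had 37.5 TPM in replicate 3 and 3.14 to 11.99 TPM in the 11, while LINC01521 had 1.78 TPM against 2.88 to 8.64 TPM. LINC01089, which starts 274 bases from the histone methyltransferase gene SETD1B, went the other way. It was higher in replicate 3, as was SETD1B at 25.7 TPM against 0 to 0.395 TPM. Exons of RHOF on the same strand overlap 41.7% of the exon bases of LINC01089. RHOF had 48.0 TPM in replicate 3 and 54.5 to 283 TPM in the 11. Since 48.46% of the words of LINC01089 occur in other transcripts, its values are uncertain too. ACTB, the beta-actin gene, had 6353 TPM in replicate 3 and 8.14 to 20.4 TPM in the other libraries. GAPDH had 8412 TPM in replicate 3, within the 5912 to 20475 TPM of the other libraries. What sets replicate 3 apart was not tested. The strand setting used for counting is unknown here, and which libraries hold the values of the intended strand could not be settled. A value of a member in the 11 libraries is therefore that of the feature as listed. It may belong to either strand, whether or not an annotated gene lies opposite.

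**Figure D2:**
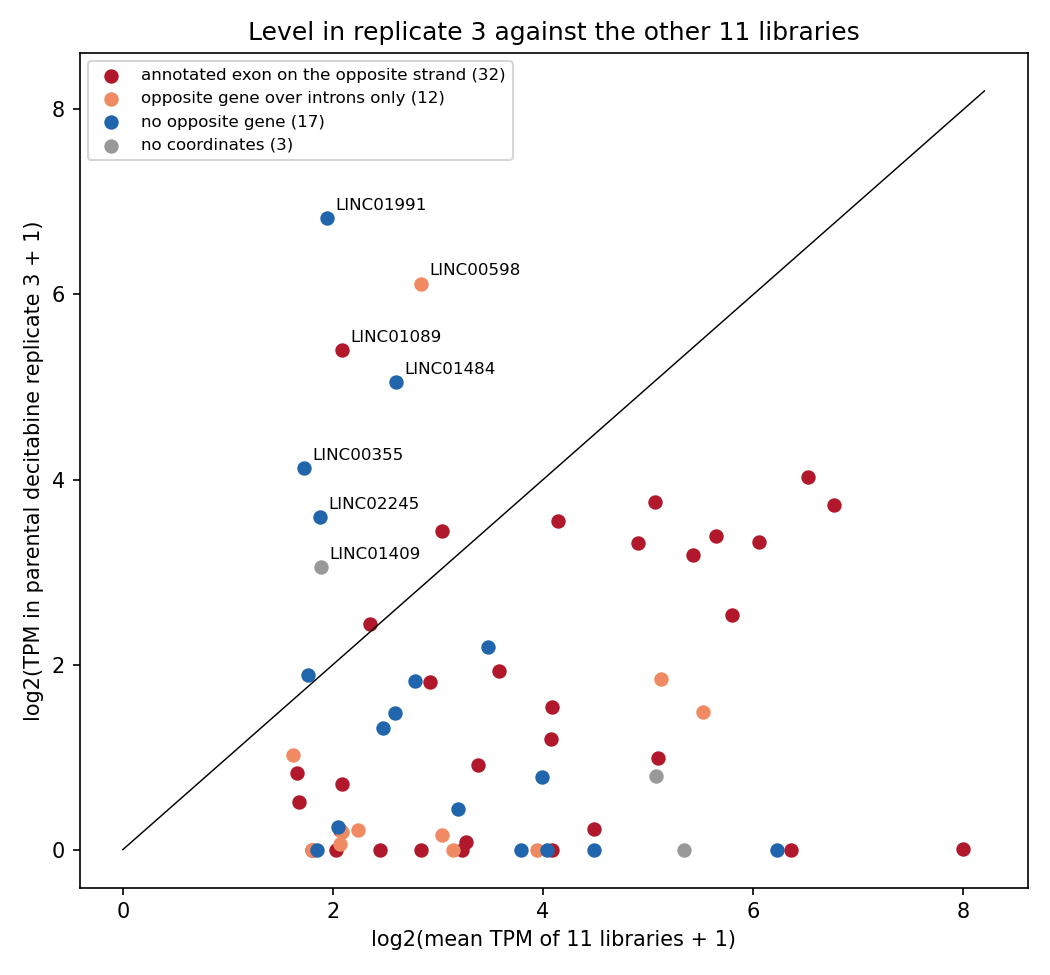
Each point is 1 LINC RNA, with log2 of its mean TPM over 11 libraries plus 1 on the x axis and log2(TPM + 1) in parental decitabine replicate 3 on the y axis, coloured by what lies on the opposite strand. The line marks equal levels, and the 7 labelled RNAs, above all 11 other libraries in replicate 3, include LINC01991 at 112 TPM.

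Decitabine against vehicle in parental cells asks which of these RNAs respond to the drug in cells not selected with venetoclax. Of 62 members tested 2 rose and none fell (limma with trend on log2(TPM + 1), Benjamini-Hochberg adjusted p under 0.05 over all 8122 features). That is 3.23% of the members, against 1.86% of all features called, 1.38% higher and 0.48% lower. At an unadjusted p under 0.05 were 13 members, where all features had 18%. The median log2 difference of the members was 0.05 (-0.15 with quantile and -0.11 with median-ratio scaling) and that of all features 0.21 (-0.02 and 0.05). Without overlap between the groups, 13 members were higher (20.97% of those tested, against 27.9% of all features) and 10 lower (16.13% against 11.6%).

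Both calls were for RNAs listed at 0 in every vehicle library, so no fold is given. They passed the filter on low values only through the decitabine libraries, so that a difference was built into their entry to the test. LINC02064 (chr5:29380296-29395981, minus strand) had 4.63 and 4.04 TPM in decitabine replicates 1 and 2 and 0.189 TPM in replicate 3 (limma adjusted p = 0.0479 without replicate 3, 0.594 with it). LINC01890 (chr2:68832816-68837192, minus strand) had 5.81 and 4.802 TPM in decitabine replicates 1 and 2 and was listed at 0 in replicate 3 (limma adjusted p = 0.0397 without replicate 3, 0.594 with it). Replicates 1 and 2 thus stood above all vehicle libraries in both, and replicate 3 did not for LINC01890. ARHGAP25, the nearest coding gene on the other strand of LINC01890 at 5983 bases, had 60.8 TPM in replicate 3 and was listed at 0 in these 5 libraries.
Without parental vehicle replicate 1, 2 or 3 the adjusted p of limma was 0.143, 0.160 and 0.132 for LINC02064 and 0.129, 0.139 and 0.124 for LINC01890. Over all alternatives it ran from 0.0117 to 0.711 for both. In resistant cells LINC01890 had 0, 7.01 and 5.13 TPM under vehicle and 3.79, 0 and 0.806 TPM under decitabine. These groups overlapped, with a log2 difference of -0.83 (SE 0.99, limma adjusted p = 0.661), and the difference between the responses was -3.49 (SE 1.21, limma adjusted p = 0.358).

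Of the 10 members that lay lower without overlap 8 have an exon opposite, 1 introns opposite and 1 no opposite gene, and of the 13 that lay higher 4, 3 and 5 do, with 1 lacking coordinates. Among all members these kinds number 32, 12 and 17, and the difference in make-up was not tested.

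In resistant cells the same treatment gave 2 rises and no fall among 64 members tested (limma, adjusted p over 8579 features). This is 3.12% of the members, against 3.59% of all features called, 2.83% higher and 0.758% lower. An unadjusted p under 0.05 was reached by 12 members, where all features had 19.8%. The members' median log2 difference was -0.04 and that of all features 0.21. Higher without overlap were 8 members (12.5%, against 19.8% of all features) and lower 8 (12.5%, against 8.58%).

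LINC01410 (chr9:62801461-62813486, plus strand) rose in resistant cells. Vehicle libraries a to c had 29.5, 21.7 and 16.8 TPM and decitabine libraries 57.9, 63.9 and 58.8 TPM, a log2 difference of 1.40 (SE 0.23, limma adjusted p = 0.0379). Every decitabine library stood above every vehicle library. In parental cells LINC01410 had 13.0, 12.7 and 18.3 TPM under vehicle and 40.8 and 39.7 TPM in decitabine replicates 1 and 2, a log2 difference of 1.41 (SE 0.22) that did not pass the test (limma adjusted p = 0.0647). Replicate 3, at 2.60 TPM, lay below all of them, and with it the parental difference was 0.24 (limma adjusted p = 0.898). The responses in the lines differed by -0.01 on the log2 scale (SE 0.33). The resistant call was kept without vehicle library a (limma adjusted p = 0.0329). Without vehicle libraries b and c the adjusted p was 0.105 and 0.0881, and without decitabine libraries a, b and c it was 0.103, 0.107 and 0.102 (limma). Its values are uncertain because of the shared words given above.

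LINC01345 (chr1:3944547-3948980, minus strand) was listed at 0 in all 3 resistant vehicle libraries and at 2.46, 3.07 and 6.29 TPM in the decitabine libraries (limma adjusted p = 0.0493). No fold is given, and it passed the filter on low values only through the decitabine libraries. In parental cells it was lower with decitabine, at 2.46 and 2.96 TPM in replicates 1 and 2 against 3.45, 3.04 and 4.23 TPM under vehicle, a log2 difference of -0.30 (SE 0.28) that did not pass the test (limma adjusted p = 0.608), and replicate 3 was at 0. The resistant vehicle libraries were thus the only group of the 11 at 0. Leaving out resistant vehicle library a, b or c gave an adjusted p of 0.106, 0.120 and 0.132, and leaving out decitabine library a, b or c gave 0.0882, 0.101 and 0.0889 (limma). DFFB, a nuclease gene of apoptotic DNA cleavage, is the nearest coding gene on the other strand at 59118 bases. DFFB had at most 0.738 TPM in the 11 libraries and 10.9 TPM in replicate 3.

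LINC00847 and LINC01678 were called in place of LINC01410 and LINC01345 when resistant decitabine library a was left out. LINC00847 then had a log2 difference of 1.55 (limma adjusted p = 0.0347) and LINC01678 one of -3.56 (limma adjusted p = 0.0400). HEIH, opposite LINC00847, was lower in decitabine libraries b and c, as given above. LINC01678 had 14.7, 7.68 and 11.05 TPM in resistant vehicle libraries and 10.4, 0 and 0 TPM in decitabine libraries a to c, so that library a overlapped the vehicle group. LINC01483, with 2.79, 0 and 0 TPM under vehicle and 6.13, 4.04 and 7.56 TPM under decitabine, was called without vehicle library a (limma adjusted p = 0.0499) and not with all 6 (0.141).

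**Figure D3:**
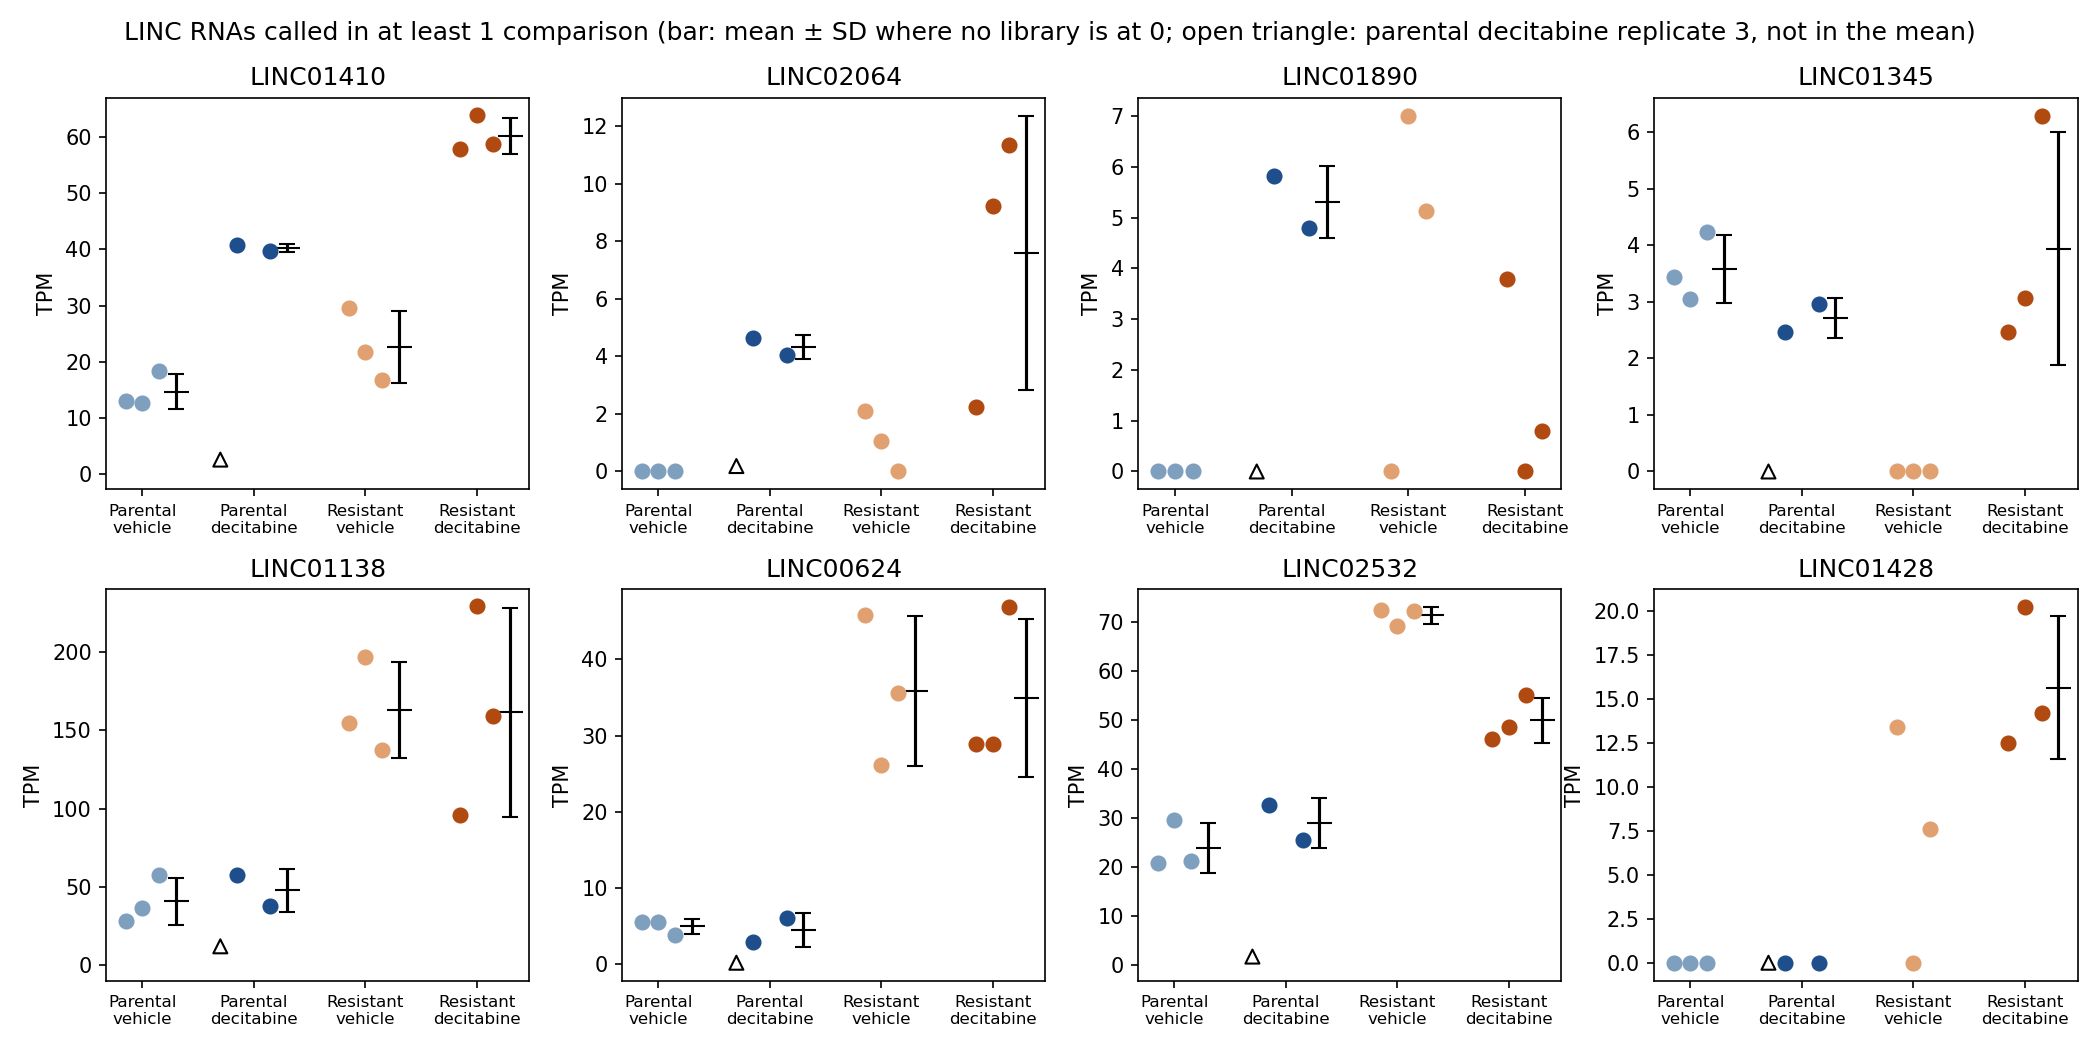
TPM of the 8 LINC RNAs that passed the test in at least 1 comparison, by line and treatment, with 1 dot per library, the mean ± SD where no library of the group is at 0, and an open triangle for parental decitabine replicate 3. LINC01410 stands higher under decitabine in both lines outside the triangle, and LINC01138, LINC00624 and LINC02532 stand higher in resistant cells under both treatments.

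The same direction without overlap in both lines was seen for 6 of the 62 members tested in both. LINC01410 and LINC02064 were higher, 3.23% of the members against 9.88% of 7359 features tested in both lines. LINC02067, LINC01709, LINC00987 and LINC00957 were lower, 6.45% against 3.41%. The lines have no library in common. None of the 4 lower RNAs passed the test in either line.

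LINC02064 had 2.10, 1.06 and 0 TPM in resistant vehicle libraries and 2.24, 9.23 and 11.3 TPM in decitabine libraries, a log2 difference of 2.0 (SE 0.69, limma adjusted p = 0.186). Library a under decitabine lay just above the highest vehicle library.
LINC02067, given library by library above, was lower by a log2 difference of -0.27 (SE 0.09, limma adjusted p = 0.248) in parental cells and -0.51 (SE 0.17, limma adjusted p = 0.183) in resistant cells. Its groups did not overlap in either line. LINC01709 (chr1:101639548-101787572, plus strand) had 18.1, 23.0 and 14.8 TPM in parental vehicle libraries and 10.2 and 9.85 TPM in decitabine replicates 1 and 2. In resistant cells LINC01709 had 20.4, 26.9 and 18.6 TPM under vehicle and 10.02, 14.8 and 8.94 TPM under decitabine. The log2 differences of LINC01709 were -0.82 (SE 0.24, limma adjusted p = 0.198) and -0.92 (SE 0.27, limma adjusted p = 0.139), the largest of these 4.

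LINC00987 (chr12:9240003-9257960, plus strand) had 9.21, 10.7 and 9.19 TPM in parental vehicle libraries and 7.45 and 6.41 TPM in decitabine replicates 1 and 2. In resistant cells LINC00987 had 10.6, 11.5 and 10.3 TPM under vehicle and 7.04, 6.92 and 5.48 TPM under decitabine. The groups lay close but apart, with log2 differences of -0.43 (SE 0.21, limma adjusted p = 0.363) and -0.66 (SE 0.22, limma adjusted p = 0.173). LINC00957 (chr7:44039171-44042306, plus strand) had 55.1, 54.2 and 53.2 TPM in parental vehicle libraries and 35.04 and 33.1 TPM in decitabine replicates 1 and 2. In resistant cells LINC00957 had 37.7, 47.3 and 44.7 TPM under vehicle and 34.02, 32.2 and 36.5 TPM under decitabine. The log2 differences of LINC00957 were -0.65 (SE 0.12, limma adjusted p = 0.0822) in parental and -0.32 (SE 0.16, limma adjusted p = 0.308) in resistant cells. All 4 lower RNAs have an annotated exon on the opposite strand, and 40.32% of the words of LINC00957 occur elsewhere. RASA4CP, opposite 23.75% of its exon bases, was also lower. RASA4CP had 106, 108 and 118 TPM in parental vehicle libraries and 49.6 and 44.3 TPM in decitabine replicates 1 and 2. In resistant cells it had 76.2, 68.8 and 79.9 TPM under vehicle and 39.9, 47.4 and 32.2 TPM under decitabine. The main opposite genes of LINC02067, LINC01709 and LINC00987 overlapped between treatments in parental cells. Whether LINC00957 and RASA4CP share reads was not tested. In replicate 3 LINC00957 was at 8.11 TPM, LINC00987 at 0.0586 TPM and LINC01709 at 0.

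Opposite directions without overlap were seen for 1 member, LINC01345, where 2.05% of all features showed them. The test of the difference between the responses gave 0 calls among the 64 members (limma, adjusted p over 8505 features), against 0.364% of all features, and 8 members at an unadjusted p under 0.05, where all features had 10.1%. LINC01345 came closest, with a difference of 2.52 (SE 0.48, limma adjusted p = 0.0845). This size rests on a group listed at 0 and depends on the pseudocount: with 0.1 in place of 1 it was 5.60 and passed the test (limma adjusted p = 0.0173). Without resistant decitabine library a LINC00847 did (limma adjusted p = 0.00676).

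**Figure D4:**
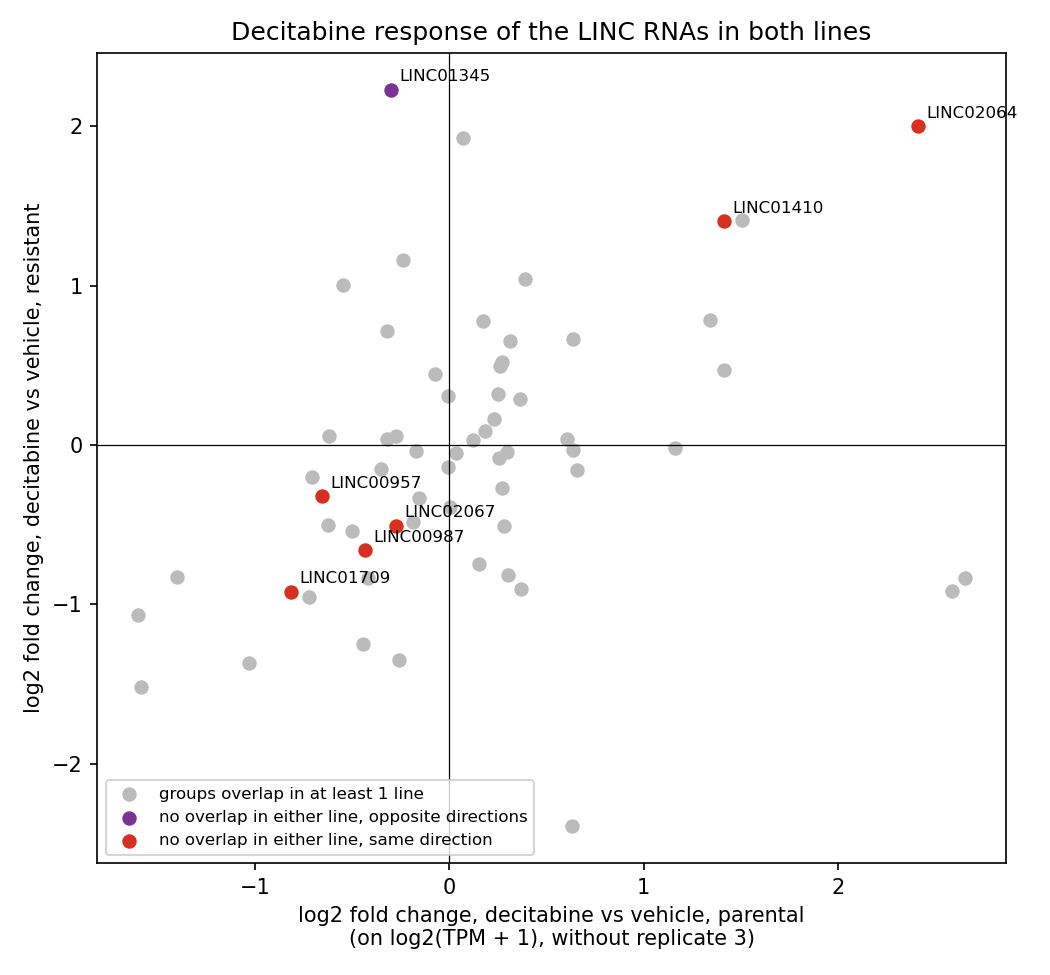
Log2 difference between decitabine and vehicle on log2(TPM + 1) in parental cells (x axis, without replicate 3) and resistant cells (y axis), 1 point per LINC RNA tested in both. The 6 red points had no overlap and the same direction in both lines, and the purple point, LINC01345, had opposite directions.

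Resistant against parental cells under vehicle asks which of these RNAs differ between the lines before decitabine is given. Of 62 members tested 3 were higher and 1 lower in resistant cells (limma, adjusted p over 7761 features), 6.45% of the members against 2.8% of all features called, 1.73% higher and 1.07% lower. An unadjusted p under 0.05 was reached by 13 members, where all features had 19.3%. The median log2 difference was 0.16 for the members and 0.11 for all features, 0.06 and 0.02 with quantile scaling, and 0.02 and -0.02 with median-ratio scaling. Higher without overlap were 12 members (19.35%, against 17.8% of all features) and lower 10 (16.13%, against 10.2%). The values of the lines come from separate tables of the same unit.

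LINC00624 (chr1:147258885-147517875, minus strand), which lies opposite the chromatin remodeller gene CHD1L, showed the largest of the 3 rises. Parental vehicle libraries had 5.54, 5.49 and 3.83 TPM (4.95 ± 0.976, SD, n = 3) and resistant ones 45.9, 26.2 and 35.6 TPM (35.9 ± 9.85, SD, n = 3), a log2 difference of 2.61 (SE 0.27, limma adjusted p = 0.0161). The groups were far apart. The call was lost without parental vehicle replicates 1, 2 and 3 (limma adjusted p 0.0582, 0.0575 and 0.0573) and without resistant vehicle library c (0.0707).
LINC01138 had 28.6, 36.5 and 57.3 TPM in parental and 155, 196 and 137 TPM in resistant vehicle libraries, a log2 difference of 2.01 (SE 0.29, limma adjusted p = 0.0318). The lowest resistant library stood above the highest parental one. The call was kept without parental vehicle replicate 3 and lost without replicates 1 and 2 (limma adjusted p 0.0911 and 0.116) and without resistant libraries a, b and c (0.0648, 0.0747 and 0.0879). LINC02532 (chr6:106717452-106787541, minus strand) had 20.8, 29.7 and 21.2 TPM in parental and 72.5, 69.3 and 72.2 TPM in resistant vehicle libraries, a log2 difference of 1.56 (SE 0.18, limma adjusted p = 0.0194). The resistant libraries agreed closely. The call was lost without parental vehicle replicates 1 and 3 (limma adjusted p 0.0698 and 0.0753) and without resistant libraries b and c (0.0516 and 0.0762).

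LINC01345 was the 1 member called lower, being at 0 in the resistant vehicle libraries (limma adjusted p = 0.0303). These are the libraries behind its call with decitabine, so the 2 calls are not separate evidence, and here LINC01345 passed the filter on low values only through the parental libraries. Without any of the 6 libraries in turn its adjusted p lay between 0.0553 and 0.114 (limma). Without parental vehicle replicates 1, 2 and 3 it was 0.112, 0.108 and 0.114, and without resistant libraries a, b and c it was 0.0553, 0.0642 and 0.0897.

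Under decitabine, 1 of 63 members was higher in resistant than in parental cells and none lower (limma, adjusted p over 9029 features), 1.59% against 0.831% of all features called, 0.509% higher and 0.321% lower. At an unadjusted p under 0.05 were 12 members, where all features had 12.1%. The medians were 0.13 for the members and 0.10 for all features, 0.01 and -0.02 with quantile scaling, and 0.04 and 0.02 with median-ratio scaling. Higher without overlap were 12 members (19.05%, against 19.5% of all features) and lower 13 (20.63%, against 12.4%).

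The called RNA was LINC01428 (chr20:7146467-7254202, minus strand), which was listed at 0 in all 6 parental libraries. It became a member and passed the filter on low values only through the resistant libraries. In resistant cells it had 13.4, 0 and 7.62 TPM under vehicle and 12.5, 20.2 and 14.2 TPM under decitabine (limma adjusted p = 0.0225 under decitabine). The decitabine libraries were all above 0, and vehicle library b was not. The call was lost without parental decitabine replicates 1 and 2 (limma adjusted p 0.101 and 0.110), without resistant decitabine libraries a, b and c (0.0776, 0.0836 and 0.0970) and with parental replicate 3 included (0.655), although LINC01428 was at 0 there too. Under vehicle it passed the test only without resistant library b (limma adjusted p = 0.0368, against 0.287 with all 6).

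Under both treatments 8 members were higher in resistant cells without overlap and 4 lower. That is 13.1% and 6.56% of the 61 members tested in both comparisons, against 6.99% and 3.51% of 7241 features. The higher ones were LINC01138, LINC00869, LINC02532, LINC02637, LINC01036, LINC01145, LINC00624 and LINC01504. Under decitabine LINC00624 had 2.90 and 6.01 TPM in parental replicates 1 and 2 and 28.9, 28.9 and 46.9 TPM in resistant libraries, a log2 difference of 2.74 (SE 0.38, limma adjusted p = 0.0764). LINC01138 had 57.7 and 38.1 TPM in parental and 95.8, 229 and 159 TPM in resistant libraries (1.67, SE 0.42, limma adjusted p = 0.238). LINC02532 had 32.7 and 25.5 TPM in parental and 46.1, 48.6 and 55.0 TPM in resistant libraries (0.76, SE 0.19, limma adjusted p = 0.238). The direction of all 3 was the one seen under vehicle, and none passed the test under decitabine.

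The 4 lower ones were LINC01353, LINC01521, LINC01447 and LINC00960, none of which passed the test. LINC01447 had 8.43, 11.5 and 7.12 TPM in parental and 3.72, 2.28 and 1.34 TPM in resistant vehicle libraries (limma adjusted p = 0.0880), and 4.81 and 7.33 TPM against 1.05, 1.501 and 1.29 TPM under decitabine (limma adjusted p = 0.201). LINC01353 had 11.3, 15.4 and 11.6 TPM in parental and 5.71, 5.45 and 6.18 TPM in resistant vehicle libraries (limma adjusted p = 0.0765), and 17.5 and 15.7 TPM against 4.66, 8.49 and 9.55 TPM under decitabine (limma adjusted p = 0.328). Each lay lower in every resistant library than in any parental library of the same treatment, replicate 3 apart.

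Of the 8 higher RNAs, 4 lie on chromosome 1 between positions 145164099 and 149679523, namely LINC01145, LINC00624, LINC01138 and LINC00869. This set was chosen after its values were seen, and the values describe it. LINC01145 (chr1:145164099-145216058, minus strand) had 25.03, 26.0 and 22.1 TPM in parental and 48.4, 54.3 and 37.4 TPM in resistant vehicle libraries, a log2 difference of 0.90 (SE 0.19, limma adjusted p = 0.0735). The resistant libraries lay above the parental ones. LINC00869 (chr1:149606334-149679523, plus strand), with the uneven values given above, had log2 differences of 3.05 (SE 1.44, limma adjusted p = 0.310) under vehicle and 3.12 (SE 1.33, limma adjusted p = 0.459) under decitabine. It passed the test under decitabine without resistant library c (limma adjusted p = 0.0328).

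Other features between these 4 were also mostly higher in resistant cells. Of 28 tested under vehicle 15 were higher in resistant cells without overlap and none lower (53.6%), with a median log2 difference of 1.27. Under decitabine 25 of 39 were higher and none lower (64.1%), with a median of 1.58. Over all 651 chromosome 1 features tested under vehicle 22.6% were higher and 9.8% lower with a median of 0.19, and over 771 under decitabine the shares were 23.7% and 13.1% with a median of 0.17. CHD1L had 2.35, 0 and 2.85 TPM in parental and 9.64, 15.7 and 27.95 TPM in resistant vehicle libraries. RBM8A, a core protein of the exon junction complex, had 242, 209.6 and 234 TPM against 758, 743 and 933 TPM, and the SUMO ligase gene PIAS3 had 6.24, 7.90 and 6.82 TPM against 18.7, 13.7 and 18.3 TPM. LINC00623 (chr1:120913275-121009291, plus strand), outside these positions, overlapped between the lines under both treatments. LINC01145 and LINC00869 share 88.55% and 59.27% of their words with other transcripts.

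**Figure D5:**
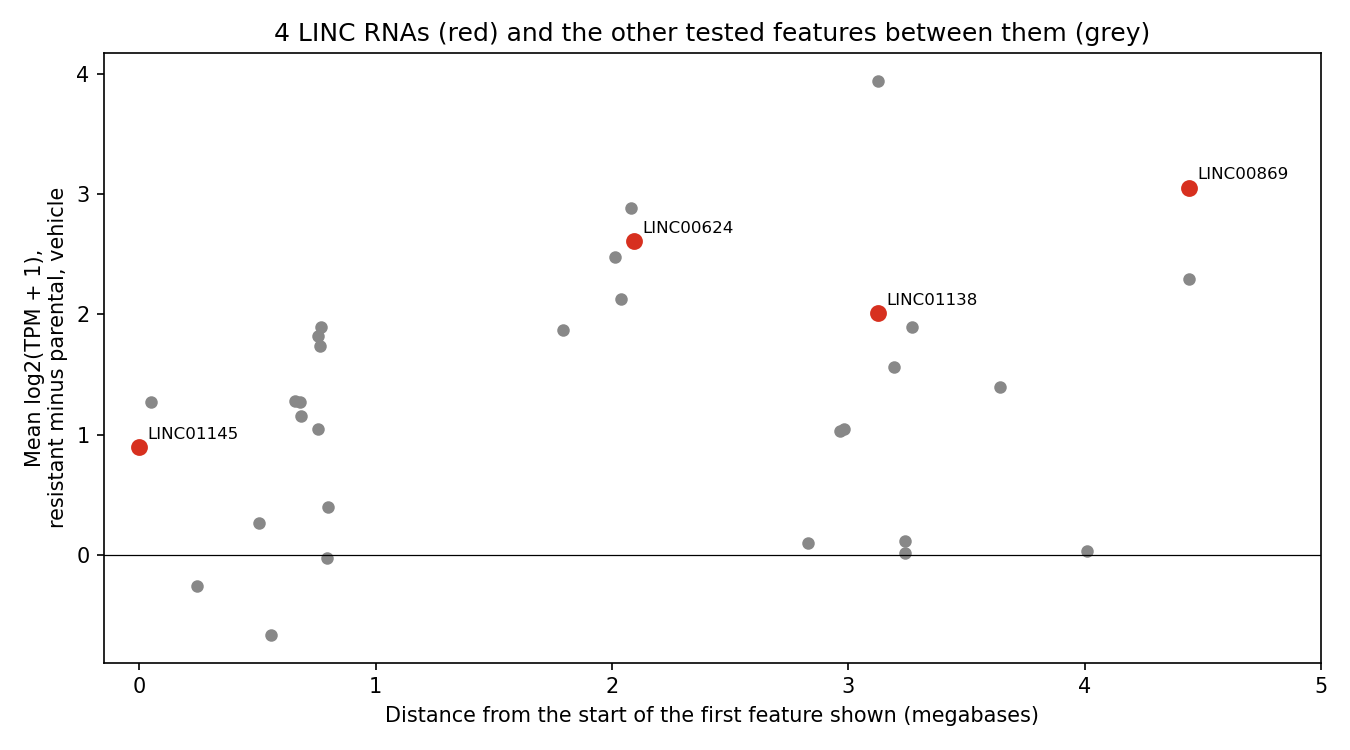
Difference in mean log2(TPM + 1) between resistant and parental vehicle libraries for the 4 LINC RNAs (red) and the other tested features between them (grey), by distance in megabases from the start of the first feature. The 4 red points lie above 0, at 0.90 for LINC01145 up to 3.05 for LINC00869, and most grey points do too.

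LINC02532 on chromosome 6 was the other called rise between the lines. Of 5 other features tested within 1000000 bases of it under vehicle, 3 were higher in resistant cells and none lower, and under decitabine 1 of 5 was higher and 1 lower. QRSL1, a mitochondrial amidotransferase subunit, is the nearest coding gene on the other strand at 49035 bases. It had 1.64, 1.91 and 1.64 TPM in parental and 3.68, 3.98 and 5.74 TPM in resistant vehicle libraries.

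Of the members, 4 pairs lie next to each other. LINC00526 and LINC00667 overlap on opposite strands of chromosome 18, and neither passed the test in any comparison. LINC00526 ranged from 25.2 to 39.6 TPM over the 11 libraries. LINC00987 and LINC02367 lie 109504 bases apart on chromosome 12. LINC02367 was higher in parental decitabine replicates 1 and 2, at 26.9 and 23.3 TPM against 6.43, 8.62 and 12.02 TPM under vehicle (limma adjusted p = 0.111), while LINC00987 was lower in the same libraries. In resistant cells LINC02367 was uneven, at 13.4, 0.784 and 10.4 TPM under vehicle and 17.8, 0.970 and 20.2 TPM under decitabine, with library b low in both groups.
LINC01942 and LINC01484 lie 1765 bases apart on chromosome 5. Their log2 differences with decitabine were -0.26 and -1.60 in parental and -1.35 and -1.07 in resistant cells, and those between the lines under vehicle were 0.85 and 0.79, and none passed the test of limma. LINC01232 and LINC00449 lie 421 bases apart on chromosome 13, both opposite TM9SF2. LINC01232 had 16.1, 23.1 and 36.2 TPM in parental vehicle libraries and 14.7 and 13.8 TPM in decitabine replicates 1 and 2, and LINC00449 had 8.74, 16.5 and 11.9 TPM and 13.2 and 16.3 TPM. LINC01232 was lower without overlap and LINC00449 overlapped, and neither passed the test.

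Well-known long non-coding RNAs and the LINC RNAs under the threshold were read in the same fits. Of 42 well-known ones 19 were tested with decitabine in each line and none was called by limma, with 4 in parental and 3 in resistant cells at an unadjusted p under 0.05. Between the lines none of 16 was called under vehicle, with 4 at an unadjusted p under 0.05, and 1 of 19 under decitabine, DANCR, which is known for keeping progenitor cells undifferentiated. DANCR had 10.3 and 9.43 TPM in parental decitabine replicates 1 and 2, 66.1, 45.6 and 51.1 TPM in resistant decitabine libraries (limma adjusted p = 0.0305) and 70.8 TPM in replicate 3. It was uneven under vehicle, at 62.9, 0 and 14.3 TPM in parental and 0, 149 and 121 TPM in resistant libraries. MALAT1, a nuclear RNA that is abundant in most cells, had 26.9 TPM in parental decitabine replicate 3 and at most 0.494 TPM in the other 11. NEAT1, the scaffold of paraspeckles, had 7.16 TPM against 0.0695 to 0.330 TPM. Among LINC features under the threshold, LINC02593 was the 1 called with decitabine in resistant cells of 15 tested, higher, and none of 26 was called by limma in parental cells, with 7 at an unadjusted p under 0.05. LINC02585 was the 1 called between the lines under vehicle of 14 tested, lower in resistant cells, and none of 33 was called by limma under decitabine, with 1 at an unadjusted p under 0.05. Over all features the shares called were those given above for each comparison.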

How the data were processed

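Polyadenylated RNA was sequenced from stranded DNBSEQ libraries, per the labels' protocols. The submitters' processing notes name HISAT2, StringTie, DESeq2 and build hg38, without versions. Which annotation and strand setting they used is not stated in these sources. Each line has 1 deposited table, whose header gives no unit. They were taken to be TPM as the authors deposited them, since each library sums to 1000000. The depth cannot be recovered from TPM, and no counting intervals are given.

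In R 4.3.3, limma 3.58.1 with its trend option was fitted to log2(TPM + 1) of features with a unique name (59490 of 60656) whose mean over the libraries in the fit reached 1 TPM, with p-values adjusted over all of them. Fold changes are on that scale and understate changes of low features. Parental decitabine replicate 3 was left out except where named. With 1 library left in an arm, it is assumed to vary like the other arm. Resistant columns carry line and treatment and were mapped to groups. Features were read by name. Of the parental table's identifiers that GENCODE 29 holds, 50.6% carry the name beside them, and 20 of the 64 members' identifiers do. Whether the name or the identifier is right was not settled. Coordinates, sequences and neighbouring genes follow the name.

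The members, the lists and the rule for named RNAs were chosen with earlier results of these data known. Named were members called in a comparison, the 10 highest means, the 3 features on each side of the threshold, members separated in both lines, the 5 highest in replicate 3 and members at 0 in a whole group. RNAs named for a left-out library or as neighbours of one another were chosen after their values were seen. Alternatives were a pseudocount of 0.1, no filter on the mean, a minimum mean of 5 TPM, quantile and median-ratio scaling, replicate 3 included, the replicate number as a block, and leaving out each library. The start sequences of 2 called members and the value of 1 marker gene are not reported here.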

Additional observations from a re-analysis of the deposited data

Results flagged for a closer look

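LINC01345 went opposite ways in the lines without overlap. In parental cells it was lower with decitabine by a log2 difference of -0.30 that did not pass the test (limma adjusted p = 0.608). The nearest libraries of the parental groups had 2.96 TPM with decitabine and 3.04 TPM under vehicle. In resistant cells it was above 0 only with decitabine. The difference between the responses, 2.52 on the log2 scale, did not pass the test (limma adjusted p = 0.0845). This value rests on a group listed at 0 in all 3 libraries, and with a pseudocount of 0.1 it was 5.60 and passed (limma adjusted p = 0.0173). In parental decitabine replicate 3, which the comparisons leave out, 7 members were above every other library. These were LINC01991 at 112 TPM, LINC00598 at 68.4 TPM, LINC01089 at 41.1 TPM, LINC01484 at 32.1 TPM, LINC00355 at 16.5 TPM, LINC02245 at 11.1 TPM and LINC01409 at 7.31 TPM.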

How the results depend on the processing

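Counts of called members were small and moved with the settings. In parental cells the 2 calls became 0 with a pseudocount of 0.1, with no filter, with a mean of at least 5 TPM, with quantile scaling and with replicate 3 included, and 0 to 2 on leaving out a library. In resistant cells the 2 calls became 0 with no filter, 1 with a mean of at least 5 TPM and 1 with quantile scaling, and 0 to 2 on leaving out a library. Between the lines, the 4 calls under vehicle became 2 with no filter and 0 to 3 without a library, and the 1 call under decitabine became 0 with no filter, 0 with replicate 3 and 0 to 1 without a library. The difference of responses gave 0, 1 with a pseudocount of 0.1, and 0 to 1 without a library. Some calls without a library were of other RNAs. Under vehicle, LINC02211 was the only call between the lines without parental replicate 1 (limma adjusted p = 0.0223). LINC01890 was 1 of 3 without resistant library a (limma adjusted p = 0.0390), and LINC01428 1 of 2 without library b. With all libraries LINC02211 and LINC01890 did not pass (limma adjusted p 0.234 and 0.292). Under decitabine the 1 call without resistant library c was LINC00869. The causes were not tested.

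With the replicate number as a block, parental cells gave 0 called members, without or with replicate 3. Whether the replicate numbers pair the samples is not known. Deviations of same-numbered libraries from their group means correlated at -0.0035, 0.0164 and 0.0223 over 13778 features. Replicate 3 entered the decitabine means and stands far apart, so these correlations cannot settle the pairing. Of 230 values of single RNAs under alternatives 170 kept direction and side of the threshold, 60 lost the call (41 on leaving out a library) and 0 reversed. The 230 pool results that passed the test with results that did not. A result that never passed keeps its side by staying uncalled, so the 170 do not measure how well the calls held. All 60 losses fell among the results that had passed. Quantile scaling moved the median of all features from 0.21 to -0.02 in parental and from 0.21 to -0.06 in resistant cells, and that of the members to -0.15 and -0.19. With no library sizes, depth cannot be set against these values.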
